A study of Mus musculus with 6 samples.

Results

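The p53 targets and DNA damage response genes were examined in the left ventricular apex of mice that had lost PTIP, the protein of Paxip1, from cardiomyocytes. The 45 genes were listed by name, with earlier results of these data known, as 25 genes of the p53 network (p53, its regulators and its targets) and 20 genes that sense, signal or repair DNA breaks, called break response genes here. A probe set was used where the platform annotation tied it to 1 of these genes alone. This gave 43 genes with 92 probe sets, out of 18193 genes and 45037 probe sets on the arrays, and 25 of the 43 genes had more than 1 probe set. Trp53 itself and Bax were not analysed here, which left 23 genes of the p53 network beside all 20 break response genes.

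The series holds 6 Affymetrix mouse arrays, 1 for each of 6 female littermates aged 8 weeks on a mixed C57B6 and B6129 background. The 3 mice called knockouts (PTIP KO in the labels) carried 1 floxed and 1 null PTIP allele, and a transgene in which the cardiac alpha myosin heavy chain promoter drives Cre recombinase fused to a modified estrogen receptor. The 3 controls (PTIP+) carried 1 floxed and 1 wild-type allele and are given no Cre transgene in the labels. All 6 received tamoxifen at 20 mg/kg into the peritoneum. The labels speak both of collection 5 days after injection and of treatment for 5 days. By the labels, Cre and the null allele belong to the knockouts alone, so an effect of Cre, of the null allele and of the induced deletion cannot be told apart. The apex also holds endothelial cells, fibroblasts, mural cells and macrophages, in which this promoter is not active, and in such bulk samples fewer cells of a type and less RNA per cell cannot be told apart.

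The p53 protein is a transcription factor that damage kinases stabilise by freeing it from Mdm2, the ubiquitin ligase that marks it for degradation. Stabilised p53 activates genes of cell cycle arrest (Cdkn1a), of apoptosis (Bbc3, Bax, Pmaip1), of metabolism (Sesn1, Sesn2) and of its own restraint (Mdm2, Ccng1). At a double-strand break, the Mre11a, Rad50 and Nbn complex activates the kinase Atm, which phosphorylates the histone H2AX. Mdc1 binds this mark and recruits the ubiquitin ligases Rnf8 and Rnf168, and the Trp53bp1 protein then binds the modified chromatin. PTIP and Rif1 bind phosphorylated Trp53bp1 and favour end joining, while Brca1 and Brca2 serve homologous recombination. Much of this signalling acts through protein modification, which arrays of RNA do not measure, whereas the p53 targets are a transcriptional output.

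The 5 upstream sequences shown here come from the RefSeq promoter table of GRCm38.p6 and were picked because each holds a match to a motif of p53 or E2F, which most members of either class lack in this window. Each is the stretch of 250 bases before an annotated start, written 5′ to 3′ on the strand of the gene. In the first 4, capitals mark exact matches to the 10-base p53 half-site consensus, which reads the same on both strands. In Chek2 they mark an E2F site. Half-sites with a mismatch were neither marked nor counted, such as tgacatgttc directly after GAACATGTCT in Cdkn1a. Cdkn1a was chosen for its pair of exact half-sites, and Mdm2, Ccng1 and Gadd45a as widely used readouts of p53 with 1 exact half-site each. Chek2 was chosen as the member with the smallest adjusted p. The windows lie at chr17:29090729-29090978 (plus strand, Cdkn1a), chr10:117710759-117711008 (minus, Mdm2), chr11:40755287-40755536 (minus, Ccng1), chr6:67037408-67037657 (minus, Gadd45a) and chr5:110839733-110839982 (plus, Chek2).
Cdkn1a: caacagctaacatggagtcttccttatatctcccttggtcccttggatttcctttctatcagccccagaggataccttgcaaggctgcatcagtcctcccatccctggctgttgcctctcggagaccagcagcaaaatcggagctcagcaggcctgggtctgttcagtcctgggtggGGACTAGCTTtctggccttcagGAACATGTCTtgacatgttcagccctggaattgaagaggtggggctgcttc
Mdm2: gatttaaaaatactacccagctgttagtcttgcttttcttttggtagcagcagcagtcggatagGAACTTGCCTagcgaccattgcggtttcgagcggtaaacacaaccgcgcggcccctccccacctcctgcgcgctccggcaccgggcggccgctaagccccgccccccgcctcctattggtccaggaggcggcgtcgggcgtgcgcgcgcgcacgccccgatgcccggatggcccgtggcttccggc
Ccng1: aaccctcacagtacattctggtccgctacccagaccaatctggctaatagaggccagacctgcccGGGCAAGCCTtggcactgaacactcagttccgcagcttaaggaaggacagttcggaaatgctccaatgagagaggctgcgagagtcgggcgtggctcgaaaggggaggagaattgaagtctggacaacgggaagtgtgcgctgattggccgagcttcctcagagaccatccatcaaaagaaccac
Gadd45a: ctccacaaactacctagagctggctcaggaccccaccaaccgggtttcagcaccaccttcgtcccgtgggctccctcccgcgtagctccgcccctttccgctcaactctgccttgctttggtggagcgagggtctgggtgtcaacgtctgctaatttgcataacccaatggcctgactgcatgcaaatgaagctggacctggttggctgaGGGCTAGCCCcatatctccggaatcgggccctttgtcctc
Chek2: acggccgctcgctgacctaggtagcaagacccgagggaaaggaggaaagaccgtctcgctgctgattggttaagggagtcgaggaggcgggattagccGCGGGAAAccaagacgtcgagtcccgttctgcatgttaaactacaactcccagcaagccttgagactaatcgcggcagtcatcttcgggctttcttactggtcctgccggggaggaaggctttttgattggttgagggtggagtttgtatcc

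Of the 43 genes, 32 had an entry in this table, with 40 upstream windows in all. At least 1 exact half-site lay in a window of 8 of 17 p53 network genes and of 0 of 15 break response genes. The genes with a match were Aen, Ccng1, Cdkn1a, Ei24, Gadd45a, Mdm2, Polk and Sesn1. By window, 8 of 24 windows of the p53 network (33.3%) held a half-site, against 7.13% of all 32851 windows in the table. Cdkn1a alone among the members had 2 exact half-sites within the 13 bases of spacing that a full p53 element allows. They lie 73 and 51 bases before the annotated start of the window shown, and 0.0639% of all windows held such a pair. The window before another annotated Cdkn1a start, at chr17:29093519-29093768, held 0 half-sites. The E2F sites searched were TTTCCCGC, TTTCGCGC, TTTGCCGC and TTTGGCGC on both strands. They lay upstream of Brca2, Chek2, Mdc1 and Xrcc6, in 25.0% of the break response windows, in 0 of the 24 p53 network windows and in 1.86% of all windows. Such matches are descriptions of letters, and p53 elements further away or within introns lie outside these windows. Full p53 elements in which a half-site has a mismatch are not in these counts.

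Paxip1, the targeted gene, was lower in all knockouts. Its probe set with the largest difference read 6.34, 5.90 and 5.90 in knockouts 1 to 3 and 7.80, 7.71 and 8.10 in controls 1 to 3. This is a difference of -1.83 with an SE of 0.17 (limma adjusted p = 0.0240), and 3 of its 4 probe sets passed. All values here are log2 expression values on which a difference of 1 is a 2-fold change, and every difference is knockout minus control. The array medians lay between 5.15 and 5.26. An Esr1 probe set (estrogen receptor alpha, the kind of receptor fused to Cre) read 12.54, 12.57 and 12.59 in the knockouts, and 8.49 in control 1, with control 3 lowest at 5.14 and control 2 between them. Control 1 was thus the highest control on it, below all knockouts, and the part of this in its other values was not tested. The other Esr1 probe sets differed by 0.32 (limma adjusted p = 0.765) and 0.37 (limma adjusted p = 0.606), with overlapping groups. Control 1 also stood apart with the lowest weight in a fit of array weights, 0.435 against 0.698 to 1.66 in the others. Of all 45037 probe sets 86 passed an adjusted p under 0.05 (0.191%), and of 18193 genes 52 passed (0.286%), each gene represented by its brightest probe set over all arrays. Cardiomyocyte markers were bright (12.6 to 13.9), as the labelled tissue requires.

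No measured gene of the p53 network or of the break response passed the test. With limma, 0 of 43 genes and 0 of their 92 probe sets had an adjusted p under 0.05, and the lowest adjusted p was 0.230, of Chek2. At an unadjusted p under 0.05 there were 5 of the 43 genes (11.6%) against 9.27% of all genes, so the members' share was near the background. Of these, 4 were higher in the knockouts (5.47% of all genes) and 1 was lower (3.80%), and by probe set the count was 8 of 92 against 9.07% of all probe sets. The exact permutation test cannot go below p = 0.1 with 3 against 3 mice. The groups did not overlap for 9 genes, 20.9% against 16.0% of all genes, with the knockouts above in 6 (9.44% of all genes) and below in 3 (6.57%).

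The differences were also small. All 43 were under 0.5 in size, from -0.47 (Chek2) to 0.42 (Eda2r). For 40 of the 43 genes the 95% interval of the difference stayed within 2-fold in both directions, which it also did for 94.6% of all genes. The 3 others, Btg2, Fas and Tnfrsf10b, reached past 2-fold on the lower side alone. On its brightest probe set, no gene had an interval that reached a 2-fold increase. The highest upper bound there was 0.85 for Pmaip1, or 1.80-fold, and the upper bound of 36 genes lay under 1.5-fold. A dimmer Aen probe set had a wider interval that did reach past it, from -0.79 to 1.47. These intervals are each for 1 gene, unadjusted for their number, and RMA compresses differences of dim probe sets.

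**Figure D1:**
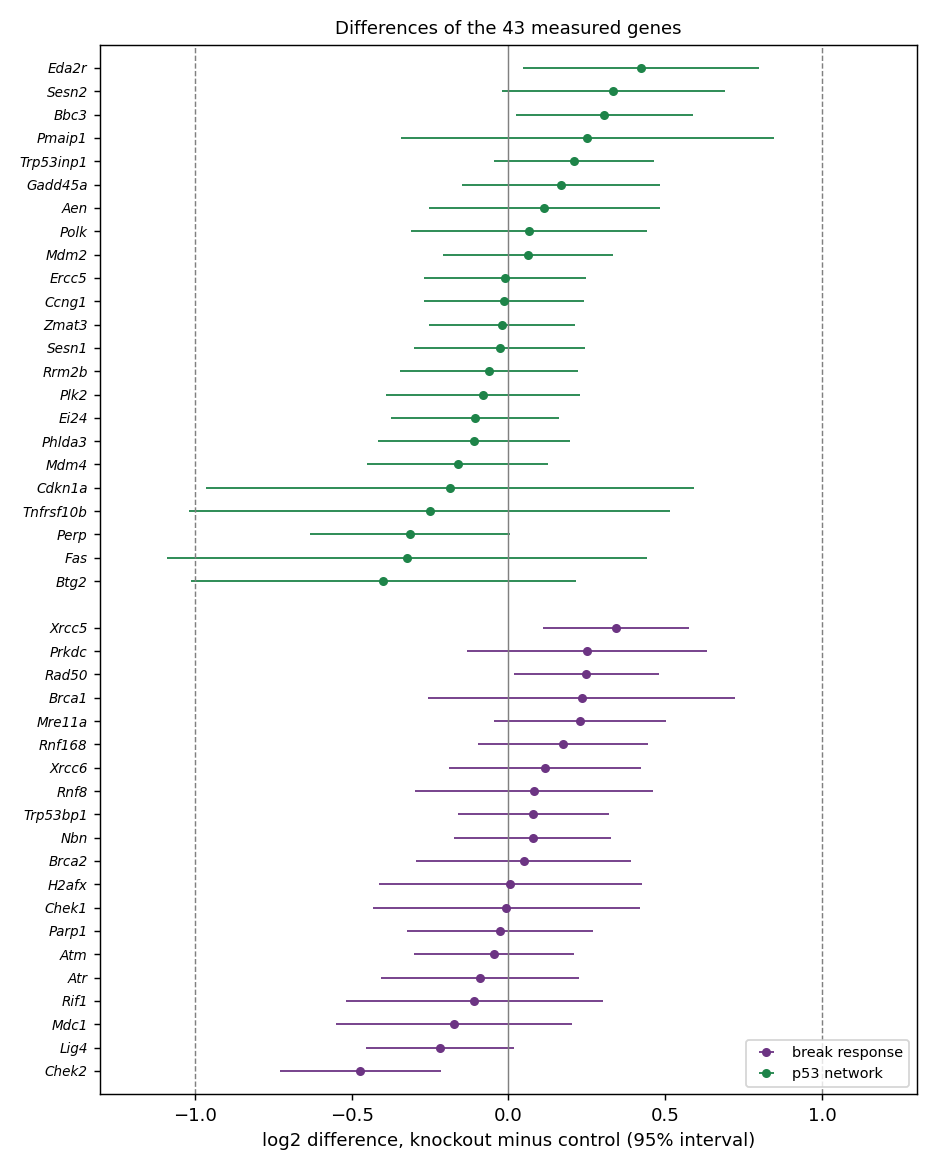
Log2 difference (knockout minus control) of the representative probe set of each of the 43 measured genes, 23 of the p53 network (green) and 20 of the break response (purple). Points are limma estimates from 3 against 3 mice, bars are 95% intervals and dashed lines mark a 2-fold change. All points lie within 0.5 of 0 and no bar reaches a 2-fold increase.

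None of the 3 measured regulators of p53 passed. Mdm2 read 11.15, 11.35 and 11.27 in knockouts 1 to 3 and 11.32, 11.12 and 11.15 in controls 1 to 3. The groups overlapped, with a difference of 0.06 (SE 0.12, 95% interval -0.21 to 0.33, limma adjusted p = 0.930). Mdm2 is among the most direct p53 targets, and its other probe sets differed by 0.19 and -0.10. Mdm4, the partner that blocks the activation domain of p53, read 8.08, 7.75 and 7.96 in the knockouts and 8.02, 8.11 and 8.14 in the controls. Knockout 1 lay inside the control range and the difference was -0.16 (limma adjusted p = 0.787). A second Mdm4 probe set was lower in every knockout than in any control (7.16, 6.97 and 7.13 against 7.53, 7.29 and 7.62). It differed by -0.39 (SE 0.13, limma adjusted p = 0.414), and the other two, both dim, by -0.39 and 0.06. Trp53inp1, a p53 target that itself strengthens p53 activity, read 9.60, 9.81 and 9.64 against 9.52, 9.48 and 9.43. All 3 knockouts lay above the controls, by 0.21 (limma adjusted p = 0.648). Its dimmer probe set read 5.39, 5.56 and 5.21 in the knockouts and 4.75, 5.21 and 4.76 in the controls. There too the knockouts lay above the controls, knockout 3 only just above control 2. The difference was 0.48 (limma adjusted p = 0.440).

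Among the 5 targets of cell cycle arrest none passed, 4 had a negative difference, and the groups overlapped for each of the 5. Cdkn1a, which encodes the kinase inhibitor p21, read 8.35, 8.61 and 9.49 in knockouts 1 to 3 and 8.75, 9.52 and 8.73 in controls 1 to 3. Knockout 3 and control 2 were high and the other 4 mice low, so the spread lay within both groups and not between them. The difference was -0.18 (SE 0.33, 95% interval -0.96 to 0.59, limma adjusted p = 0.928). Its second probe set showed the same 2 mice high, at 7.11 in knockout 3 and 7.45 in control 2, with the others between 5.50 and 6.30. The sign of the Cdkn1a difference turned without knockout 1 (0.05) and without control 2 (0.08). Ccng1, cyclin G1, differed by -0.01 (SE 0.11) with an SD of 0.11 in the knockouts and 0.04 in the controls. Its other probe sets differed by 0.16 and -0.015. Gadd45a, a stress sensor of growth arrest, differed by 0.17 (SE 0.13), and Plk2, a stress-induced polo-like kinase, by -0.08 (SE 0.13).

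Btg2, an antiproliferative gene that also answers to growth stimuli, had the most negative difference of the p53 network. It read 8.88, 8.83 and 8.45 in the knockouts and 9.45, 9.39 and 8.52 in the controls. Control 3 lay with the knockouts, and the difference was -0.40 (SE 0.26, limma adjusted p = 0.744), or -0.70 without control 3 (limma adjusted p = 0.426). Its second, dimmer probe set read 6.78, 5.73 and 6.16 against 6.08, 7.22 and 6.44, a difference of -0.36 (limma adjusted p = 0.847). There control 1 was the lowest control and control 3 lay between the others. Most of the immediate early genes listed, such as Fos, Fosb and Egr1, had control 3 as the lowest control, like the brighter Btg2 probe set. The exceptions were Klf4 and Myc, where control 1 was the lowest control, and Ier3, where control 2 was. Of 14 on that list 11 had a negative difference, with a median of -0.18, and their median deviation from the mean of all arrays was 0.32 in control 1, 0.26 in control 2 and -0.16 in control 3. On the brightest probe sets none passed, and none had an unadjusted p under 0.05. A second Egr2 probe set was lower in every knockout than in any control. It differed by -0.45 (SE 0.18, limma unadjusted p = 0.0395, limma adjusted p = 0.520). The 4 of the list with the smallest p were Egr2 at -0.39, Egr1 at -0.54, Ier2 at -0.34 and Fosb at -0.85. Fosb read 3.60, 3.23 and 2.72 in the knockouts and 5.18, 4.15 and 2.78 in the controls. The part of the early response in the Btg2 values was not tested.

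**Figure D2:**
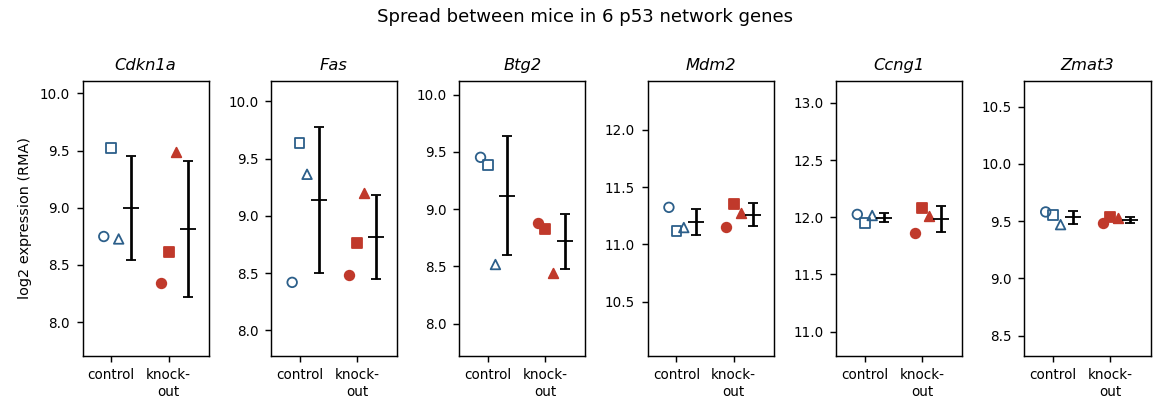
Log2 expression (RMA) of 6 p53 network genes in each control (open blue) and knockout (filled red), with circle, square and triangle for mice 1, 2 and 3, and the mean ± SD of each group (n = 3) beside the points. All panels span 2.4 log2 units, and the wide spread of Cdkn1a, Fas and Btg2 stands beside the narrow spread of Mdm2, Ccng1 and Zmat3.

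The spread between mice of 1 group differed widely within the p53 network. The pooled within-group SD of Cdkn1a was 0.53, above that of 97.9% of all genes, and Fas and Tnfrsf10b each lay at percentile 97.8. Btg2 and Pmaip1 lay at percentiles 94.5 and 93.7. No break response gene was above percentile 90, where Brca1 was the highest at 86.7. Zmat3, an RNA-binding protein and p53 target, was among the least variable at percentile 2.57, with 9.51 ± 0.03 in the knockouts and 9.54 ± 0.06 in the controls (SD, n = 3 each). The precision therefore differs between targets, and a change of Cdkn1a or Fas would have to be larger to be seen than one of Zmat3, Ccng1 or Mdm2.

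Of the 10 measured targets of apoptosis none passed and 4 had a positive difference. Eda2r, a receptor of the TNF receptor family, had the highest difference of all members. It read 6.68, 7.00 and 6.67 in the knockouts and 6.62, 6.31 and 6.15 in the controls. The knockouts lay above the controls, but knockouts 1 and 3 only just above control 1. The difference was 0.42 (SE 0.16, 1.34-fold, limma adjusted p = 0.490), 0.55 without control 1, and 0.31 in the 4 arrays whose description numbers share their leading digits (knockout 3 and all controls). Bbc3, the BH3-only protein PUMA, read 5.35, 5.05 and 5.19 against 4.85, 4.99 and 4.83. Its groups did not overlap, with a difference of 0.31 (SE 0.12, limma adjusted p = 0.513), though its mean over all arrays of 5.04 lay below the median probe set mean of 5.19.

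Pmaip1, which encodes the BH3-only protein NOXA, was dimmer still, with 3.43 ± 0.21 in the knockouts and 3.18 ± 0.51 in the controls (SD, n = 3 each). Fas, the death receptor, read 8.48, 8.77 and 9.20 in the knockouts and 8.42, 9.64 and 9.36 in the controls. Controls 2 and 3 were high and control 1 was the lowest of the 6 mice, so the difference of -0.32 (limma adjusted p = 0.853) became -0.69 without control 1 (limma adjusted p = 0.352). Tnfrsf10b, the mouse TRAIL receptor, was dim and read 5.02 in control 1 and between 3.66 and 4.15 in the 5 other mice. Its difference was -0.25, while its second probe set, also dim, differed by 0.19 with control 1 lowest at 3.28. Perp, a desmosome-associated protein, read 11.18, 11.62 and 11.45 against 11.75, 11.68 and 11.75. All knockouts lay below the controls, by -0.31 (SE 0.14, limma adjusted p = 0.556). The 4 others were Aen, a nuclease, at 0.11, Ei24, of the endoplasmic reticulum, at -0.11, Phlda3, a repressor of Akt, at -0.11, and Zmat3 at -0.02.

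**Figure D3:**
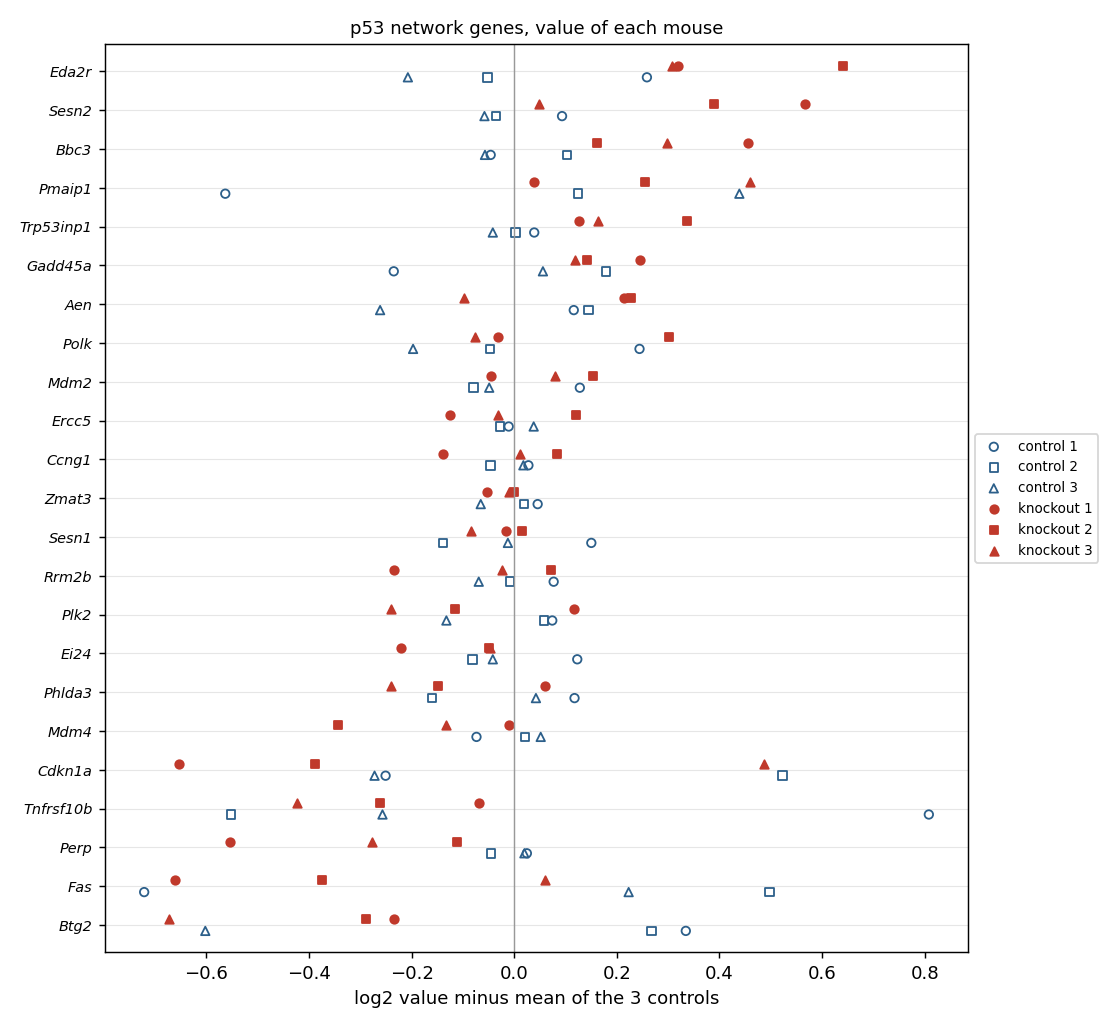
Value of each mouse for the 23 measured p53 network genes, as the log2 value minus the mean of the 3 controls, with genes ordered by their difference. Open blue symbols are controls, filled red symbols knockouts, and circle, square and triangle stand for mice 1, 2 and 3. The groups are apart for Eda2r, Bbc3, Trp53inp1 and Perp (17.4%, against 16.0% of all genes), and overlap for the other 19 genes.

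The 5 targets of stress metabolism and repair lay close to 0, apart from Sesn2. Sesn2, a leucine sensor and inhibitor of mTORC1 that p53 and other stress factors induce, read 6.88, 6.70 and 6.36 in the knockouts and 6.40, 6.28 and 6.25 in the controls. Knockouts 1 and 2 were above all controls and knockout 3 was not. The difference was 0.33 (SE 0.15, limma adjusted p = 0.584), and 0.05 in the 4 arrays that leave out knockouts 1 and 2. Its dim second probe set had the same order of groups, at 0.43 (limma adjusted p = 0.604). Sesn1, a related sestrin, differed by -0.03 (SE 0.12), Rrm2b, the p53-induced subunit of ribonucleotide reductase, by -0.06 (SE 0.12), Polk, a translesion polymerase, by 0.07 (SE 0.16) and Ercc5, a nuclease of excision repair, by -0.01 (SE 0.11).

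Among the damage kinases and checkpoint kinases Chek2 stood lowest. Chek2, the effector kinase of Atm that phosphorylates p53, read 6.06, 5.95 and 5.88 in knockouts 1 to 3 and 6.52, 6.43 and 6.35 in controls 1 to 3. All 3 knockouts lay below all 3 controls, with SDs of 0.09 in both groups. The difference was -0.47 (SE 0.11, 95% interval -0.73 to -0.21), which is 0.72-fold, with a limma adjusted p = 0.230. It kept its sign in all 18 other settings of the processing, from -0.56 to -0.43, and passed in none of them, with limma adjusted p between 0.122 and 0.911. The last of these comes from the 4 arrays, where a single knockout leaves little chance of passing. Chek2 has 1 probe set, so no second measurement stands beside it. Its partner upstream, Atm, read 9.22, 9.31 and 9.39 against 9.45, 9.33 and 9.28, overlapping values with a difference of -0.05 (SE 0.11, limma adjusted p = 0.947). A second, dimmer Atm probe set also overlapped and had a wider interval. It differed by -0.32 (SE 0.40, 95% interval -1.26 to 0.63, limma adjusted p = 0.891).

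Atr, the kinase of stalled replication forks, differed by -0.09 (SE 0.13), and Chek1, its effector, by -0.01 (SE 0.18). Prkdc, the catalytic subunit of DNA-PK, read 8.05, 8.26 and 8.17 in the knockouts and 8.25, 7.72 and 7.76 in the controls. Control 1 lay with the knockouts, and the difference was 0.25 (SE 0.16, limma adjusted p = 0.744), or 0.42 without control 1 (limma adjusted p = 0.292).

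The sensors and adaptors at breaks, on the path to Trp53bp1 and PTIP, had 7 positive and 3 negative differences of at most 0.25 in size. Rad50, the coiled-coil ATPase of the Mre11a complex, read 8.02, 7.99 and 7.93 in the knockouts and 7.77, 7.73 and 7.71 in the controls. The groups did not overlap and the difference was 0.25 (SE 0.10, limma adjusted p = 0.518). Mre11a, its nuclease partner, differed by 0.23 without overlap (limma adjusted p = 0.638), and Nbn, the third subunit, by 0.08 with overlap. H2afx, the gene of histone H2AX, read 7.45, 6.86 and 6.90 against 7.21, 7.03 and 6.95. Knockout 1 was highest and knockouts 2 and 3 lowest, and the difference was 0.01 (SE 0.18, limma adjusted p = 0.997).

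Trp53bp1, which binds PTIP at breaks, had a within-group SD at percentile 5.45 of all genes. It read 10.40, 10.42 and 10.47 in the knockouts and 10.43, 10.27 and 10.34 in the controls, a difference of 0.08 (SE 0.10, 95% interval -0.16 to 0.32, limma adjusted p = 0.892). Its 5 other probe sets differed by -0.14 to 0.41 and none passed. Mdc1 read 9.16, 9.54 and 9.47 against 9.80, 9.35 and 9.54, with knockout 1 lowest, control 1 highest and a difference of -0.17 (limma adjusted p = 0.836). Rif1, the other effector of Trp53bp1, differed by -0.11 (SE 0.18), Rnf8 by 0.08 (SE 0.16), Rnf168 by 0.17 (SE 0.12) and Parp1, the sensor of strand breaks, by -0.03 (SE 0.13).

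Of the 5 repair genes, the groups were apart for Xrcc5 and Lig4 (40.0%, against 16.0% of all genes), with opposite signs. Xrcc5, the gene of Ku80, read 9.48, 9.52 and 9.57 in the knockouts and 9.15, 9.23 and 9.17 in the controls. All knockouts lay above all controls with SDs of 0.05 and 0.04, and the difference was 0.34 (SE 0.10, 95% interval 0.11 to 0.57, 1.27-fold, limma adjusted p = 0.347). In the 18 other settings it stayed between 0.32 and 0.39 and passed in none. Xrcc6, the gene of its partner Ku70, differed by 0.12 (SE 0.13), with a dim second probe set at -0.23. Lig4, the ligase of end joining, read 7.89, 7.89 and 7.95 against 8.18, 8.15 and 8.06, a difference of -0.22 (SE 0.10, limma adjusted p = 0.594).

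Brca1 was dim, with 4.47, 4.13 and 4.68 in the knockouts and 4.03, 4.58 and 3.96 in the controls, overlapping values that differed by 0.23 (SE 0.21, limma adjusted p = 0.829). Another dim Brca1 probe set read 3.85, 3.63 and 3.33 against 4.62, 4.16 and 3.73, a difference of -0.56 (limma adjusted p = 0.546), so its probe sets disagreed in sign. Brca2 differed by 0.05 (SE 0.15). Brca1, Brca2 and Chek1 are mostly expressed in dividing cells. Of 14 measured proliferation genes 4 had a positive and 10 a negative difference, none passed, and the lowest adjusted p was 0.473, of Rrm1 at 0.31. The others of the 4 with the smallest p were Top2a at -0.51, Ccna2 at -0.40 and Mcm6 at -0.34.

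**Figure D4:**
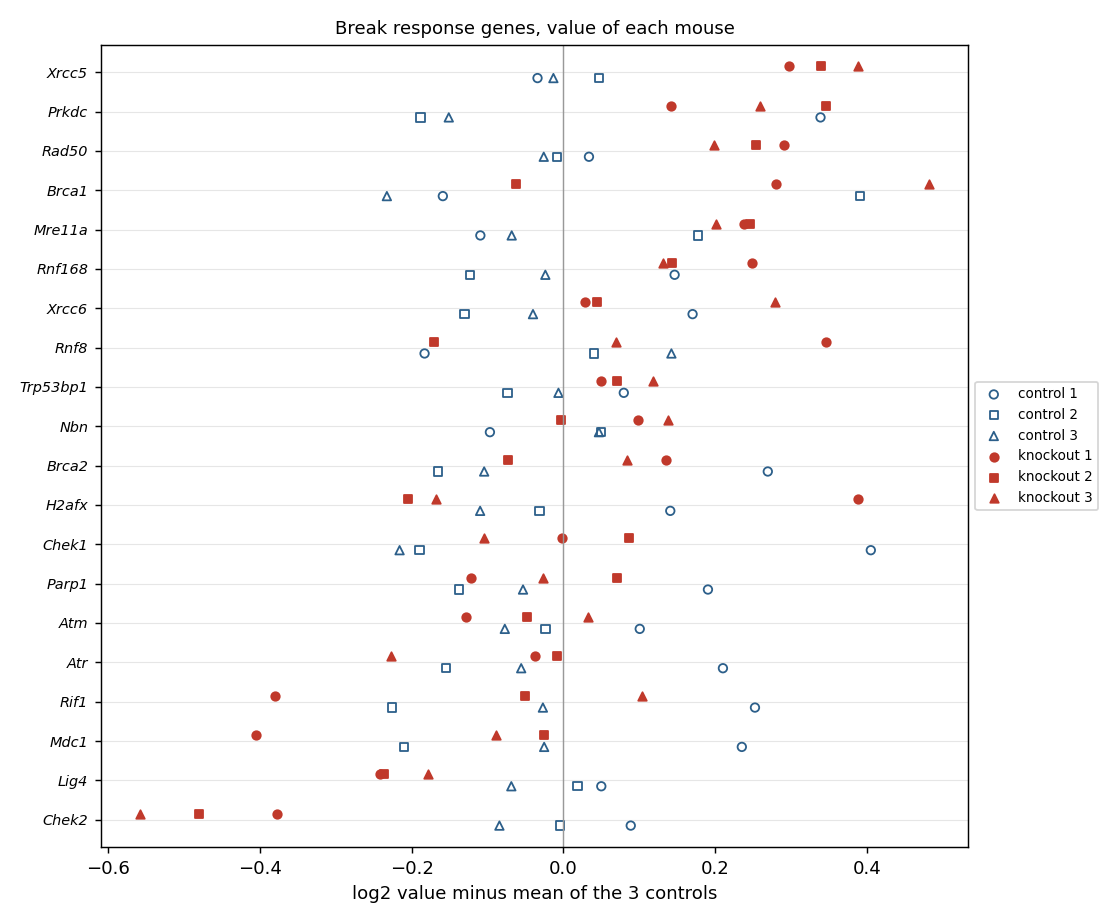
Value of each mouse for the 20 break response genes, as the log2 value minus the mean of the 3 controls, with genes ordered by their difference. Open blue symbols are controls, filled red symbols knockouts, and circle, square and triangle stand for mice 1, 2 and 3. The groups are apart for Xrcc5, Rad50, Mre11a, Lig4 and Chek2 (25.0%, against 16.0% of all genes), and overlap for the other 15 genes.

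Set side by side, the p53 network had 9 positive and 14 negative differences with a median of -0.02, and the break response genes 12 positive and 8 negative with a median of 0.06. At an unadjusted p under 0.05 there were 2 of 23 p53 network genes (8.7%) and 3 of 20 break response genes (15.0%), against 9.27% of all genes. The groups did not overlap for 4 p53 network genes (17.4%) and 5 break response genes (25.0%), against 16.0% of all genes. Over all genes the median was 0.02, with 10024 positive and 8169 negative. Per mouse, the median deviation of the p53 network from the mean of all arrays was -0.04, 0.05 and -0.00 in knockouts 1 to 3 and 0.06, -0.02 and -0.05 in controls 1 to 3. The same values of the break response genes were 0.01, 0.02 and 0.06 in the knockouts and 0.13, -0.12 and -0.08 in the controls. Control 1 was the highest of the 6 mice in both classes, and neither class separated the groups. The median of the p53 network was 0.02 after centring the arrays on their medians, and 0.04 without knockout 1, so its sign was not stable. Centring shifts the differences of all genes by the same amount.

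No further p53 target outside the 45 genes passed. Of 26 on that list 25 were measured, 0 passed with limma, and the median difference was 0.04. At an unadjusted p under 0.05 there were 6, 3 in each direction, which is 24.0% against 9.27% of all genes. Ephx1, an epoxide hydrolase that xenobiotic receptors also induce, read 11.10, 10.86 and 10.50 in the knockouts and 10.03, 10.18 and 10.35 in the controls, a difference of 0.64 (SE 0.17, limma adjusted p = 0.309). Tigar, a fructose bisphosphatase that p53 induces in human cells, had all knockouts above all controls on its brightest probe set, at 0.32 (limma adjusted p = 0.443). Its 2 other probe sets differed by 0.77 (limma adjusted p = 0.166) and 0.69 (limma adjusted p = 0.446), so all 3 had the same sign. The others of the 4 with the smallest p were Rprm at -0.47, dim and with overlapping groups, and Cgrrf1 at 0.29. Another Cgrrf1 probe set had the opposite sign, at -0.11, and its remaining ones differed by 0.24 and 0.25.

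In the list of further break response genes, 32 of 35 were measured and 0 passed on the representative probe set. An unadjusted p under 0.05 was held by 3 of them, 9.38% against 9.27% of all genes. Paxip1 is on that list, and its representative probe set differed by -0.95 (limma adjusted p = 0.106) although the 3 others passed. The smallest adjusted p was that of Shld1, a subunit of the shieldin complex that acts downstream of Trp53bp1 and Rif1 to limit end resection. Shld1 read 10.92, 10.67 and 10.45 in knockouts 1 to 3 and 9.86, 9.54 and 9.69 in controls 1 to 3. All knockouts lay above all controls by more than 0.5, and the difference was 0.98 (SE 0.16, 1.98-fold, limma adjusted p = 0.0868). Its second probe set differed by 0.95 (limma adjusted p = 0.120). Shld2, another shieldin subunit, differed by 0.22 (limma adjusted p = 0.696) with overlapping groups and is named here beside Shld1 after its value was seen. The others of the 4 with the smallest p were Atrip, the partner of Atr, at 0.30 and Rpa2, of the single-strand binding complex, at 0.26.

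Excision repair genes had 10 positive and 5 negative differences among 15 measured of 16. Of these 0 passed, and 1 had an unadjusted p under 0.05 (6.67%, against 9.27% of all genes). Neil1, a glycosylase of oxidised bases, differed by 0.48 (SE 0.18, limma adjusted p = 0.501). The others of the 4 with the smallest p were Xpa at 0.32, Neil3 at -0.43 and Ercc6 at -0.18. Neil3 and Ercc6 were dim, with means over all arrays of 4.77 and 2.29, and a dimmer Neil3 probe set differed by -0.002. Xpa had dim probe sets at -0.24 and -0.54, of the opposite sign.

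Markers of the other cells of the apex were followed because a target can be expressed in any of them. Macrophage markers were lower in the knockouts for 7 of 7 genes, with a median difference of -0.33, and their summed linear level was 3795 to 5175 in the knockouts and 5528 to 5943 in the controls. None of the 7 passed, and 4 had an unadjusted p under 0.05, all lower (57.1%, against 3.80% of all genes in that direction). The sums overlapped between the groups for cardiomyocyte, endothelial, fibroblast, mural, lymphocyte and neutrophil markers. Lymphocyte markers were dim, with means from 3.31 to 5.18. The part of a lower macrophage signal in values such as those of Fas, Btg2 or Chek2 was not tested.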

How the data were processed

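Left ventricular RNA of 6 mice was labelled with an amplifying biotin system, per the labels, and hybridised to 1 array each. The authors deposited RMA values on a log2 scale, with the method named in the submitters' processing notes and the log base read from the range of 1.36 to 14.1. The sources used here give no version of it. RMA gives all arrays a like distribution, so a change in total RNA cannot be seen.

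Control probe sets (64 of 45101) were dropped. Of the remaining 45037, the annotation tied 34945 to 1 gene and 932 to several, and did not list 9160. Current symbols came from a RefSeq table of GRCm38.p6 for the 34741 whose Entrez number it held. The test was limma 3.58.1 under R 4.3.3, with lmFit, eBayes and group as the only term, two-sided, with Benjamini-Hochberg adjustment over the 45037 probe sets. Each gene was represented by its brightest probe set. The median standard error was 0.147, and 95% intervals use the moderated degrees of freedom (median 7.39). Precision is limited by there being 3 mice a group. The fit was tested on simulated data.

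The members and lists were chosen with earlier results of these data known. Genes given in full were Mdm2, Mdm4, Cdkn1a, Trp53bp1, H2afx, Atm and Brca1, members at an unadjusted p under 0.05, the 3 highest and 3 lowest differences of each class, and other probe sets at an unadjusted p under 0.05. Other members are given by their differences. Of the other lists, up to 4 genes with the smallest p were named. Alternatives changed the normalization, filters, variance model, probe set choice and mice used.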

Additional observations from a re-analysis of the deposited data

How the results depend on the processing

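In each of the 18 alternative settings, 0 p53 network genes and 0 break response genes passed, and each class median moved from its main value by less than 1 SD of the mouse medians (0.0496 and 0.0961), except that of the p53 network without knockout 1. That median ranged from -0.0620 to 0.0447 when single mice were left out. The count of all passing probe sets moved more: 204 with array weights, 185 with a variance trend, 51 with a robust prior, 1 without moderation, 0 in the 4 arrays that share leading digits of their description number (1 knockout against 3 controls, too few to count as support), and 0 to 21 when single mice were left out. With the replicate number as a block it was 0 as well. The replicate numbers did not pair the mice, with correlations of -0.15, -0.08 and -0.01 between same-numbered mice, and the block changed no call of a member. At an unadjusted p under 0.05 there were 2 p53 network genes (8.7%) and 3 break response genes (15.0%), against 9.27% of all genes. These became 1 p53 network gene with a variance trend and 4 when the probe sets of a gene were averaged. Without single mice, 1 to 2 p53 network genes remained. The share of all genes is not given for these settings, so these counts have no background beside them. Signs turned for Atm in the 4 arrays (0.0330), with array weights (0.00977) and without single mice (-0.0876 to 0.00295), and for Brca1 with the mean of its probe sets (-0.10) or the probe set of smallest SD (-0.0137). They turned for Cdkn1a in the 4 arrays (0.49) and without single mice (-0.52 to 0.0763), and for Fas in the 4 arrays (0.0610). H2afx turned in the 4 arrays (-0.17), with array weights (-0.0129), after renewed quantile normalization (-0.000347) and without single mice (-0.19 to 0.11). The cause of these turns was not tested. A filter on probe sets above the median of means removed Bbc3 and Brca1 among the genes followed.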
